A study of Canis lupus familiaris with 17 samples.

Results

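Canine soft tissue sarcomas that received 2 intratumoral doses of IL-2 and IL-12 were compared with untreated sarcomas for immune gene expression. The 11 tumours were chosen by their labels, 4 with 2 doses and 7 untreated, out of 17 tumours in all, and the raw probe counts were scaled by the housekeeping probes. Both cytokines were given as fusions to a collagen-binding protein, which holds an injected protein in the matrix of the tumour. The 4 two-dose tumours, called A to D, got the second dose 6 days after the first and were removed 2 days later, on day 8. Tumours A, B and C were peripheral nerve sheath tumours and D was a fibrosarcoma. The 7 untreated tumours, called A to G, came from archived tissue and comprised 4 perivascular wall tumours besides 3 of nerve sheath. All tumours came from client-owned pet dogs, a different dog for each sample, and no dog gave a tumour before and after treatment. No vehicle group is among the samples. Archiving went with the untreated group in every sample, so it and the absence of treatment cannot be told apart. RNA from fixed, paraffin-embedded tissue was measured on a NanoString nCounter canine immuno-oncology panel, on which barcoded probes are counted on the RNA without amplification.

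IL-12 is made by antigen-presenting cells and acts on T cells and natural killer (NK) cells, which respond through STAT4 by making interferon gamma (IFNG). IL-2 drives T and NK cells to divide and to fill their granules with perforin and granzymes. IFNG in turn acts on almost every nucleated cell, raising IRF1, antigen presentation, chemokines such as CXCL10 and brakes such as IDO1 and CD274. Endogenous IL2, IL12A and IL12B probes are directed at the dog's own RNA, not at the injected proteins.

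The two-dose tumours did not form a uniform group. The geometric mean of the 20 housekeeping probes was 643, 297, 608 and 55.1 raw counts in two-dose tumours A, B, C and D, against 489 to 686 in the untreated tumours. Total endogenous counts were 205118 in two-dose tumour D and 1016527 to 1752729 in the other two-dose tumours, against 1200521 to 1509461 in the untreated tumours. The background of a tumour was taken as the mean plus 2 SD of its 8 negative control probes. After scaling, this background stood at 18.2, 66.1, 17.5 and 338 normalized counts in two-dose tumours A to D and at 12.6 to 23.7 in untreated tumours. A value under 338 in tumour D or under 66.1 in tumour B is therefore at background, and the scaling lifts background along with signal. In tumour D 416 of 780 endogenous probes passed background, against 609 to 674 in untreated tumours, and 12 of its 20 housekeeping probes did. Over log2 counts, tumours A and C correlated at 0.941 and B and D at 0.948, while the other pairs of two-dose tumours lay between 0.780 and 0.825. The part of RNA amount and quality in the results below was not tested, and the changes of the leading genes are also given from a fit without B and D.

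Tissue identity was checked against markers. VIM, the intermediate filament of mesenchymal cells (chosen after its values were seen), had 150228, 36296, 239188 and 55523 normalized counts in two-dose tumours A to D, against 142670.00, 216012 and 354388 (lowest, median and highest) in untreated tumours. S100B and SOX10 are Schwann lineage markers used for peripheral nerve sheath tumours. S100B had 26.3, 129, 47.7 and 299 normalized counts in two-dose tumours A to D, of which 3 were above background, against 12.7, 51.4 and 190.04 in untreated tumours. SOX10 was above background in 0 of 4 two-dose tumours and 4 of 7 untreated tumours, so the label of two-dose tumours A, B and C had no support from SOX10. The keratin gene KRT14 marks skin epithelium and was singled out after its values were seen. KRT14 had 24.1, 9585, 27.0 and 4934 normalized counts in two-dose tumours A to D, against 11.9, 522 and 4179.6 in untreated tumours. It was thus highest in the same 2 two-dose tumours, B and D, that had the fewest housekeeping counts. Summed over the 7 tested skin, fat and muscle markers, the two-dose tumours had 7243 to 15366 normalized counts and the untreated tumours 4433 to 25780. The part of adjacent skin in the results was not tested.

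After 2 doses, 241 of 724 tested genes (33.3%) rose and 3 (0.414%) fell, by edgeR's quasi-likelihood test at a Benjamini-Hochberg adjusted p under 0.05. The largest rises were those of GZMB, IDO1, CXCL10, GBP5 and IFNG, all genes of killer cells or of the interferon gamma response, at log2 changes of 8.30, 8.26, 7.77, 7.21 and 6.64. Of the 241 rises, 239 exceeded a log2 change of 1, 166 exceeded 2 and 76 exceeded 3, and 171 belonged to at least 1 of the 31 gene lists used below. In bulk tissue, more cells of a type and more RNA per cell cannot be told apart. The fixed scale matters to the balance of calls, because the median log2 change over all tested genes was 0.63 with housekeeping scaling. It was -0.049 with TMM scaling, which centres the endogenous genes, and 156 genes (21.5%) then rose and 36 (4.97%) fell. Median-of-ratios scaling gave 145 rises and 47 falls. All 156 TMM rises were among the 241, and all 241 kept a positive sign with TMM scaling.

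The 241 rises were carried unevenly by the 4 tumours. Tumour D was above the highest untreated tumour in all 241, B in 240, A in 147 and C in 91. Of these 241, 8, 11, 8 and 66 were not above the tumour's own background in A, B, C and D. For 81 of these genes all 4 two-dose tumours lay above every untreated tumour, for 76 genes 3 did, for 83 genes 2 did and for 1 gene 1 did. In 233 of the 241 both B and D were higher than A and C. B and D were also higher over all tested genes, with median log2 differences from the untreated median of 1.05 and 1.28. Those of A and C were 0.27 and 0.21. Over all tested genes, 192 (26.5%), 375 (51.8%), 135 (18.6%) and 399 (55.1%) were above the highest untreated tumour in A, B, C and D. In D 237 of these 399 were also above its own background, and in B 343 of 375. Below the lowest untreated tumour lay 67 (9.25%), 124 (17.1%), 76 (10.5%) and 105 (14.5%) genes in A, B, C and D. Groups separated completely upward for 82 genes (11.3%), and in 65 of them each two-dose tumour was also above its own background. Without B and D together, the 2 two-dose tumours with the lowest housekeeping level, 30 genes rose (4.14%) and 0 fell, with 98 higher and 15 lower at an unadjusted p under 0.05 by edgeR. The signs of 221 of the 241 rises stayed positive in that fit, which was chosen after seeing the data. With B alone left out, 152 genes rose, and with D alone left out, 174 rose.

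**Figure D1:**
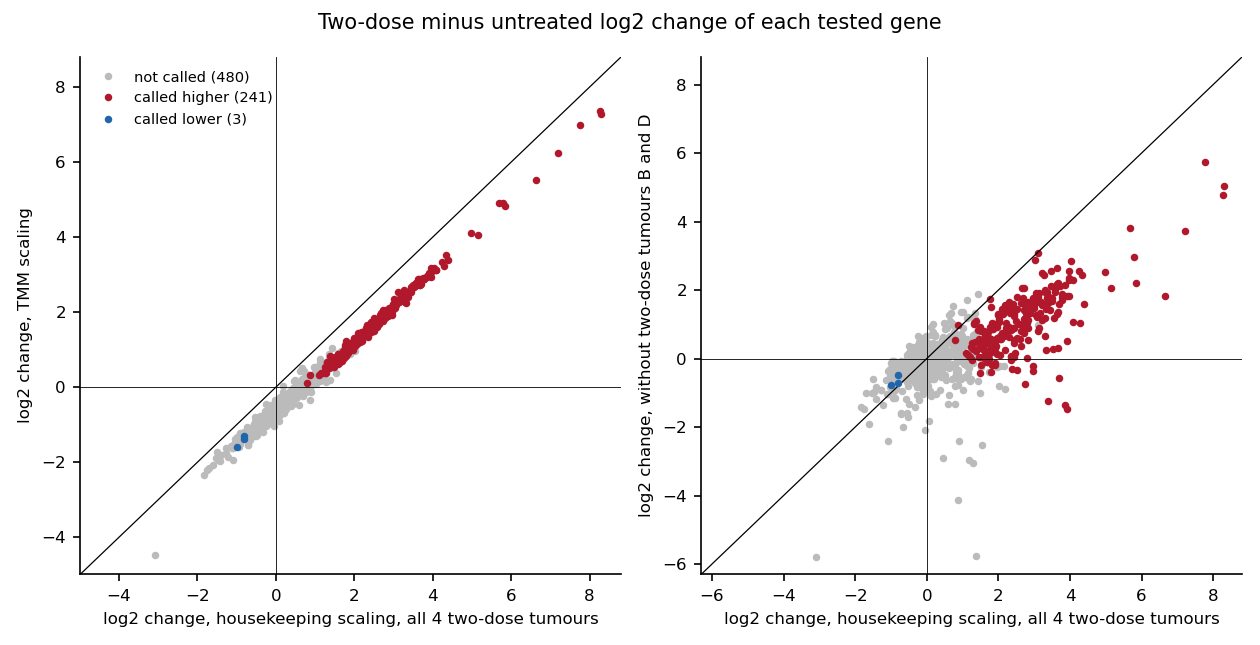
Log2 change of each of 724 tested genes, two-dose minus untreated, with housekeeping scaling on both horizontal axes, against TMM scaling (left) and against the fit without two-dose tumours B and D (right). Red points are the 241 genes called higher and blue points the 3 called lower, and the thin diagonal marks equal change. With TMM scaling the points lie below the diagonal, with some changes of order, such as that of GZMB (7.29) and IDO1 (7.36). Without B and D most red points fall well below the diagonal and a few below 0.

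Tumour type was unevenly spread too, since no two-dose tumour was a perivascular wall tumour and no untreated tumour a fibrosarcoma. With sarcoma type as a covariate 56 genes (7.73%) rose and 0 fell, and all 241 changes stayed positive. In that fit tumour D, the single fibrosarcoma, has a term of its own and adds nothing to the contrast. Among peripheral nerve sheath tumours alone, 3 two-dose against 3 untreated, edgeR called 0 genes, with 114 higher and 3 lower at an unadjusted p under 0.05. The signs of all 241 were again positive.

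IFNG, the product of activated T and NK cells, was at background in all 7 untreated tumours and above it in all 4 two-dose tumours. It had 36.8, 1756, 23.9 and 1686 normalized counts in two-dose tumours A to D, against 4.57, 8.90 and 10.8 (lowest, median and highest) in untreated tumours. The groups did not overlap, yet tumours B and D had about as much as each other and far more than A and C, with a highest-to-lowest ratio of 73.6. The log2 change was 6.64 ± 0.92 (SE, adjusted p = 9.30e-05), and since the untreated values are background its size depends on that background. It was 10.32 with background subtracted and 1.81 (adjusted p = 0.0409) without B and D. Of 11 tested genes of IFNG and its signalling path, 6 rose (54.5%, against 33.3% of all tested genes) and 0 fell. Their median log2 change was 0.80, or 0.17 above that of all genes. IRF1, a transcription factor that IFNG induces, had 1476, 9541, 1215 and 6787 normalized counts in two-dose tumours A to D, against 101, 404 and 974 in untreated tumours, again without overlap, a log2 change of 3.49 ± 0.62 (SE, adjusted p = 0.000445). SOCS1, a feedback inhibitor of cytokine signalling, rose by 2.87 ± 0.51 (SE, adjusted p = 0.000442) on the log2 scale. Neither IRF1 nor SOCS1 was called without B and D, at 1.66 and 1.32. JAK1, the kinase bound to the receptor, had a log2 change of 0.091 ± 0.34 (SE), not called, with a negative sign under TMM (-0.37) and median-of-ratios scaling.

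All 22 tested genes of the IFNG response rose, against 33.3% of all tested genes, with a median log2 change of 3.43, or 2.80 above that of all genes. With TMM scaling 19 of the 22 rose, against 21.5% of all tested genes. In 14 of the 22 the 2 groups did not overlap, against 11.3% of all tested genes. IDO1, which breaks down tryptophan and restrains T cells, had 2163, 32710.2, 468 and 23723 normalized counts in two-dose tumours A to D, against 8.46, 35.6 and 118 in untreated tumours. The lowest two-dose tumour, C, was still above the highest untreated one, and the log2 change was 8.26 ± 1.14 (SE, adjusted p = 9.30e-05). CXCL10, a chemokine that draws CXCR3-bearing T cells, had 12608, 41729.6, 1514 and 59114 normalized counts in two-dose tumours A to D, against 11.4, 55.4 and 478 in untreated tumours. Groups did not overlap and the log2 change was 7.77 ± 1.22 (SE, adjusted p = 0.000212). GBP5, an interferon-induced guanylate-binding protein of host defence, had 421, 5939, 99.4 and 5312 normalized counts in two-dose tumours A to D, against 7.61, 13.8 and 52.5 in untreated tumours. Its log2 change of 7.21 ± 0.94 (SE, adjusted p = 5.92e-05) came with no overlap, although tumour C was within 2 times the highest untreated value. Without B and D all 3 were still called, with smaller log2 changes of 4.78, 5.74 and 3.71 for IDO1, CXCL10 and GBP5, against 7.36, 6.99 and 6.23 with TMM scaling.

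Further response genes included enzymes, chemokines and regulators. ACOD1, which makes itaconate in activated macrophages, rose by 5.85 ± 0.79 (SE, adjusted p = 8.62e-05) on the log2 scale, CCL8, a monocyte chemokine, by 5.80 ± 0.89 (SE, adjusted p = 0.000187), and IFGGC1 by 5.68 ± 1.00 (SE, adjusted p = 0.00043). ANKRD22 rose by 4.39 ± 0.76 (SE, adjusted p = 0.000385). CIITA, the master activator of MHC class II genes, had 438, 2102, 258 and 1905 normalized counts in two-dose tumours A to D, against 49.2, 123 and 185 in untreated tumours, without overlap, and the log2 change was 3.37 ± 0.54 (SE, adjusted p = 0.000215). CD274, which encodes the PD-L1 ligand, had 290.2, 1275, 165 and 966 normalized counts in two-dose tumours A to D, against 41.1, 73.2 and 223 in untreated tumours, so that tumour C fell inside the untreated range. CD274 rose by 2.88 ± 0.53 (SE, adjusted p = 0.000545) on the log2 scale. NOS2, the inducible nitric oxide synthase, rose by 2.19 ± 0.61 (SE, adjusted p = 0.0102), a call that ended in 9 of 25 alternatives. Among these were TMM scaling (adjusted p = 0.089), sarcoma type as a covariate (0.14), leaving out tumour B (0.222) and the sample letters, which both groups carry, as a block (adjusted p = 0.125, 0.000892 to 0.961 over all alternatives). Without B and D the changes of ACOD1, CCL8 and IFGGC1 were 2.21, 2.95 and 3.80, all called, while those of ANKRD22, CIITA and CD274 were 1.60, 1.62 and 1.32, not called.

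Antigen presentation rose as a whole. All 11 tested MHC class I genes rose, with a median log2 change of 3.06, and all 10 class II genes did, with a median of 3.35, against 33.3% and 0.63 over all tested genes. With TMM scaling 10 and 10 rose, against 21.5% of all tested genes. Groups did not overlap in 8 of the class I and 7 of the class II genes, against 11.3% of all tested genes. PSMB8, a protease subunit of the immunoproteasome, had 762, 5195, 383 and 2300.3 normalized counts in two-dose tumours A to D, against 25.4, 90.0 and 239.96 in untreated tumours. The log2 change was 4.34 ± 0.69 (SE, adjusted p = 0.000215) for PSMB8 and 3.62 ± 0.66 (SE, adjusted p = 0.000516) for PSMB9, another such subunit. The class I heavy chain gene DLA88 had 12769, 26849, 8822 and 31949.5 normalized counts in two-dose tumours A to D, against 777, 4220.5 and 5143 in untreated tumours, without overlap. It rose by 2.67 ± 0.59 (SE, adjusted p = 0.00191) on the log2 scale, its light chain B2M by 2.70 ± 0.63 (SE, adjusted p = 0.00308), the class I gene DLA-79 by 3.79 ± 0.72 (SE, adjusted p = 0.00069), and NLRC5, the class I transactivator, by 3.19 ± 0.53 (SE, adjusted p = 0.000284). TAPBP, the peptide-loading chaperone tapasin, changed least, by 1.64 ± 0.50 (SE, adjusted p = 0.0176), and lost its call in 8 of 25 alternatives, TMM scaling (adjusted p = 0.142) and leaving out B (0.0868) or D (0.0824) among them. TAPBP is also on the IFNG response list, so the counts of that list and of the class I list are not independent. In the fit without B and D, PSMB8 was called at 2.43, and PSMB9, DLA88, B2M, DLA-79 and NLRC5 were not, at 2.17, 1.78, 1.59, 1.79 and 1.66.

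Among the class II genes, DLA-DRA, the alpha chain of the DR molecule, had 23465, 80372, 13826 and 84970.3 normalized counts in two-dose tumours A to D, against 582, 3838 and 8653 in untreated tumours. The lowest two-dose tumour was above the highest untreated one, and the log2 change was 3.66 ± 0.74 (SE, adjusted p = 0.00115). CD74, the invariant chain, followed with 3.32 ± 0.65 (SE, adjusted p = 0.00088), DLA-DQA1 with 3.98 ± 0.81 (SE, adjusted p = 0.00115) and DLA-DQB1 with 3.96 ± 1.10 (SE, adjusted p = 0.0101). DLA genes are polymorphic between dogs and resemble one another, so a probe may bind alleles of different dogs unequally, which was not tested. The list's smallest change, that of DLA-DMA, a peptide-exchange factor, was 2.30 ± 0.57 (SE, adjusted p = 0.00496). None of these 5 class II genes was called without B and D, at changes of 0.92 to 2.54. Of 13 genes of the type I interferon response 4 rose (30.8%, against 33.3% of all tested genes), at a median of 1.29, or 0.66 above that of all genes. With TMM scaling 1 of the 13 rose, and without B and D 0 did, against 21.5% and 4.14% of all tested genes. ISG20, an antiviral exonuclease, rose by 3.51 ± 0.74 (SE, adjusted p = 0.00148) and BST2, the tetherin that holds virions at the membrane, by 2.32 ± 0.75 (SE, adjusted p = 0.0228). BST2 lost its call in 8 of 25 alternatives, TMM scaling (adjusted p = 0.0575) and leaving out B (0.0654) or D (0.0971) among them.

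Genes of killer cell granules rose after 2 doses. Of 10 tested cytotoxic effector genes 9 rose, against 33.3% of all tested genes. Their median log2 change was 3.28, or 2.65 above that of all genes. With TMM scaling 7 rose, against 21.5% of all tested genes. GZMB, a protease of killer cell granules, had 993, 12092, 739 and 19895 normalized counts in two-dose tumours A to D, against 13.4, 23.3 and 47.5 (lowest, median and highest) in untreated tumours. Even tumour C was more than 10 times above the highest untreated tumour, and the log2 change was 8.30 ± 0.90 (SE, adjusted p = 1.64e-05). It was 7.29 with TMM scaling, 9.30 with background subtracted and 5.02 without B and D, called each time, and 3 of the untreated values were at background. GZMA, the related tryptase, had 321, 871, 326 and 1439.9 normalized counts in two-dose tumours A to D, against 30.0, 37.8 and 90.6 in untreated tumours, without overlap. It rose by 4.03 ± 0.44 (SE, adjusted p = 1.64e-05), and without B and D the change was still 2.85 (adjusted p = 0.000528). NKG7, a granule membrane protein, rose by 4.08 ± 0.47 (SE, adjusted p = 2.71e-05), and GZMH by 3.70 ± 0.58 (SE, adjusted p = 0.000212), of which NKG7 kept its call without B and D (2.30) and GZMH did not (1.60). PRF1, the pore former, had 203, 437, 274 and 983 normalized counts in two-dose tumours A to D, against 115, 183 and 207 in untreated tumours, with tumour A inside the untreated range. PRF1 rose by 1.49 ± 0.41 (SE, adjusted p = 0.00957), a call that ended in 7 of 25 alternatives, TMM scaling (adjusted p = 0.203) and leaving out D (0.118) among them. LAMP1, a lysosome protein of most cells, was not called, at -0.12 ± 0.37 (SE).

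**Figure D2:**
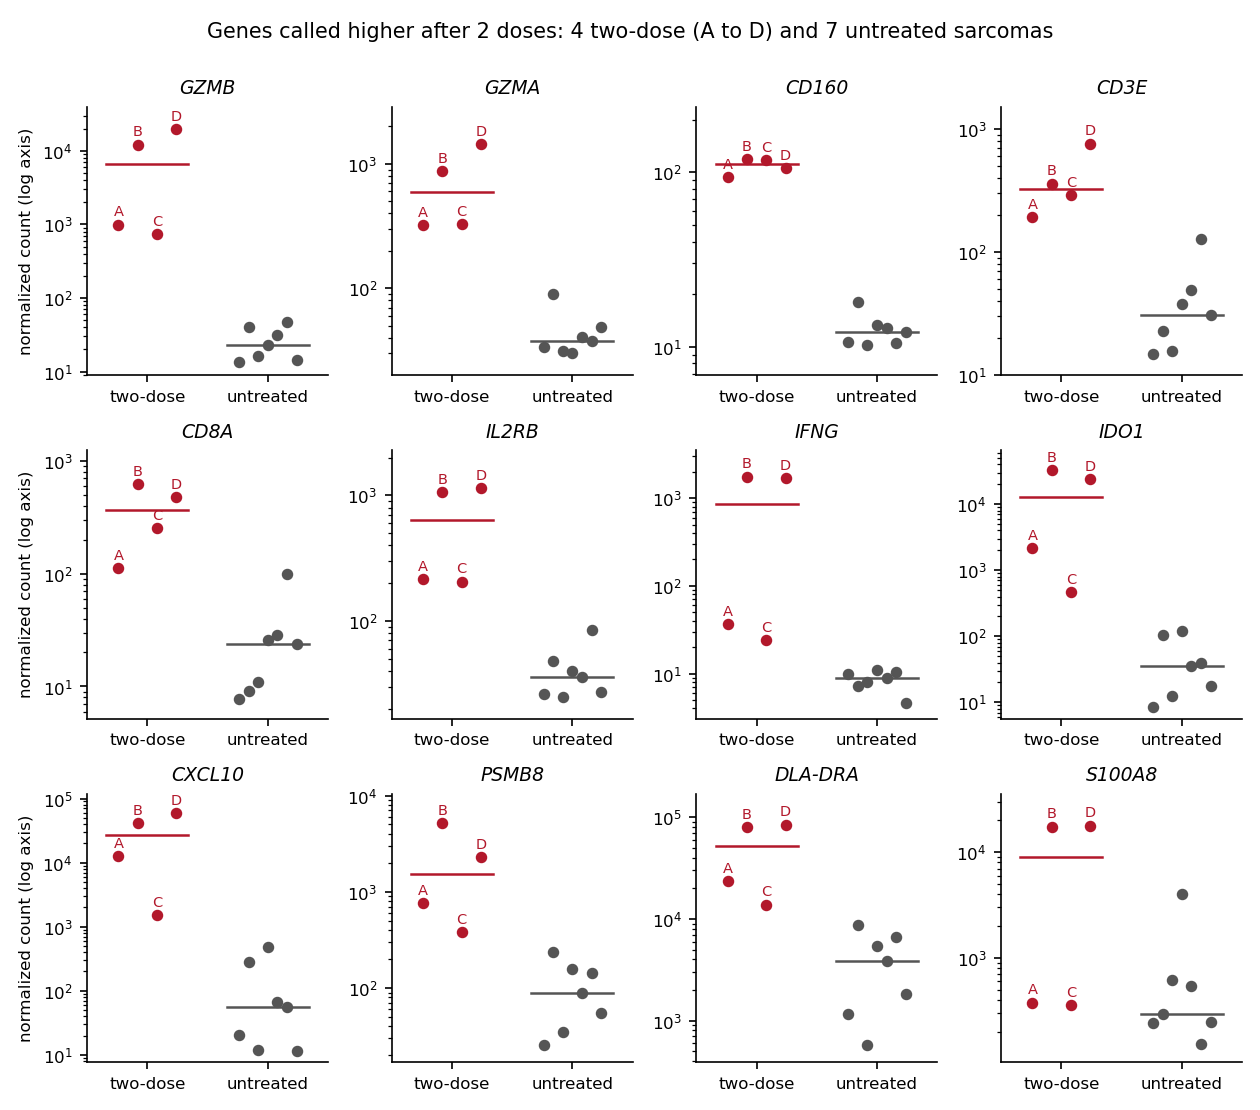
Normalized counts (log axes) of 12 genes called higher in the 4 two-dose tumours (red, A to D) and the 7 untreated tumours (grey), with a line at each group's median. CD160 lies between 94.0 and 119 in the two-dose tumours, the value of D being under that tumour's background of 338 and so an upper bound, while IFNG and S100A8 are high in B and D and far lower in A and C.

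T cell genes rose in 17 of 24 tested members (70.8%, against 33.3% of all tested genes). Their median log2 change was 2.21, or 1.58 above that of all genes. In 12 of the 24 the groups did not overlap, against 11.3% of all tested genes. CD3E, a chain of the T cell receptor complex, had 192, 360.4, 291 and 764 normalized counts in two-dose tumours A to D, against 14.8, 30.5 and 127 in untreated tumours. Groups did not overlap and the log2 change was 3.23 ± 0.58 (SE, adjusted p = 0.000445). CD8A, the coreceptor of killer T cells, had 111, 618, 254 and 474 normalized counts in two-dose tumours A to D, against 7.76, 23.6 and 99.3 in untreated tumours. Tumour A was close to the highest untreated tumour, and the log2 change was 3.63 ± 0.63 (SE, adjusted p = 0.000385). CD4, the coreceptor of helper T cells, had 85.0, 1652, 161 and 562 normalized counts in two-dose tumours A to D, against 21.2, 45.5 and 239 in untreated tumours, and tumours A and C lay inside the untreated range. CD4 rose by 3.12 ± 0.78 (SE, adjusted p = 0.00501), and without tumour B the call was lost (adjusted p = 0.0868). Which cells carried the CD4 RNA was not tested. Costimulatory CD28 rose by 3.64 ± 0.65 (SE, adjusted p = 0.000445) and SH2D1A, the adaptor of SLAM receptors, by 3.46 ± 0.53 (SE, adjusted p = 0.000187). With B and D left out, CD3E, CD8A and SH2D1A were still called, at 2.51, 2.64 and 2.11, and CD4 and CD28 were not, at 0.80 and 1.31.

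TRAC, the constant region of the T cell receptor alpha chain, and TRGC3, that of a gamma chain, were singled out after their values were seen, for their small range among the two-dose tumours. TRAC had 297, 290.3, 316 and 369 normalized counts in two-dose tumours A to D, against 19.2, 83.1 and 175 in untreated tumours. TRGC3 had 55.6, 48.9, 43.7 and 79.0 normalized counts in two-dose tumours A to D, against 3.62, 7.05 and 8.37 in untreated tumours, and was above background in 2 of 4 and 0 of 7, so that its values in B and D are upper bounds. For TRAC the groups did not overlap, and the highest two-dose tumour was 1.27 times the lowest. The TRGC3 values did not overlap either, with a highest-to-lowest ratio of 1.81. With upper bounds in B and D, that ratio does not show an even level, and the separation is measured in A and C only. Of the 241 rises 7 had a ratio under 2 and 177 a ratio over 5.

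NK cell genes rose in 7 of 11 tested members (63.6%, against 33.3% of all tested genes). Their median log2 change was 2.02, or 1.38 above that of all genes. With TMM scaling 5 rose, against 21.5% of all tested genes. CD160, a receptor of cytotoxic NK and T cells, had 94.0, 119, 118 and 105 normalized counts in two-dose tumours A to D, against 10.3, 12.2 and 18.1 in untreated tumours. The highest of these two-dose values was 1.27 times the lowest, but the value in tumour D was below that tumour's background and is an upper bound. The log2 change was 3.11 ± 0.33 (SE, adjusted p = 1.64e-05) with all tumours and 3.07 (adjusted p = 0.000211) without B and D. NCR1, the receptor that defines NK cells, had 36.1, 235, 14.3 and 237 normalized counts in two-dose tumours A to D, against 5.14, 9.89 and 17.2 in untreated tumours. Its log2 change was 3.66 ± 0.60 (SE, adjusted p = 0.000257), but it passed background in 2 of 4 two-dose and 0 of 7 untreated tumours, and tumour C lay inside the untreated range. KLRB1, a C-type lectin of NK cells, rose by 2.97 ± 0.45 (SE, adjusted p = 0.000187), and KLRK1 was not called, at 0.063 ± 0.47 (SE), with a negative sign under TMM (-0.56) and median-of-ratios scaling. EOMES, a transcription factor of killer T and NK cells, had 79.7, 494, 114 and 571 normalized counts in two-dose tumours A to D, against 7.61, 13.9 and 29.9 in untreated tumours. It rose by 4.25 ± 0.51 (SE, adjusted p = 2.99e-05) with no overlap. The fit without B and D still called EOMES (2.57) and KLRB1 (1.74) but not NCR1 (1.35).

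The 3 chains of the IL-2 receptor and 1 chain of the IL-12 receptor rose, while IL2 did not pass the test. Of 27 tested genes of the IL-2 and IL-12 families, their receptors and signalling, 15 rose (55.6%, against 33.3% of all tested genes). Their median log2 change was 2.19, or 1.56 above that of all genes. IL2RB, the signalling chain that IL-2 and IL-15 share, had 214, 1053, 205 and 1141 normalized counts in two-dose tumours A to D, against 25.0, 35.6 and 85.2 in untreated tumours. It rose by 3.98 ± 0.49 (SE, adjusted p = 3.55e-05) without overlap. IL2RG, the common gamma chain, rose by 3.45 ± 0.59 (SE, adjusted p = 0.000364). IL2RA, which makes the high-affinity receptor of activated and regulatory T cells, had 160.2, 719, 84.3 and 571 normalized counts in two-dose tumours A to D, against 8.08, 29.7 and 193 in untreated tumours, with A and C inside the untreated range. It rose by 2.77 ± 0.79 (SE, adjusted p = 0.0117), and without tumour B the call was lost (adjusted p = 0.074). Of the 3 chains IL2RB alone was called without B and D, at 2.35, against 1.42 for IL2RG and 1.14 for IL2RA.

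For IL-12, the receptor chain IL12RB1 rose by 2.43 ± 0.53 (SE, adjusted p = 0.00181) and TBX21, the T-bet factor of type 1 lymphocytes, by 3.04 ± 0.48 (SE, adjusted p = 0.000215), and neither was called without B and D (0.47 and 1.27). IL12RB2, the chain that activates STAT4, had 46.6, 217, 73.9 and 289.7 normalized counts in two-dose tumours A to D, against 6.67, 26.3 and 167 in untreated tumours. The log2 change of 1.88 ± 0.72 (SE) missed the threshold (adjusted p = 0.0531), and with the sample letters as a block it passed (adjusted p = 0.00385, 0.00114 to 0.893 over all alternatives). IL2 had 587, 732, 719 and 808 normalized counts in two-dose tumours A to D, against 391, 514 and 676 in untreated tumours. For IL2 the log2 change of 0.42 ± 0.23 (SE, adjusted p = 0.173) was not called and turned negative with TMM scaling (-0.20). Whether the signal of this probe came from IL2 RNA alone was not tested. IL12A and IL12B were above background in 0 of 11 tumours and were not tested.

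**Figure D3:**
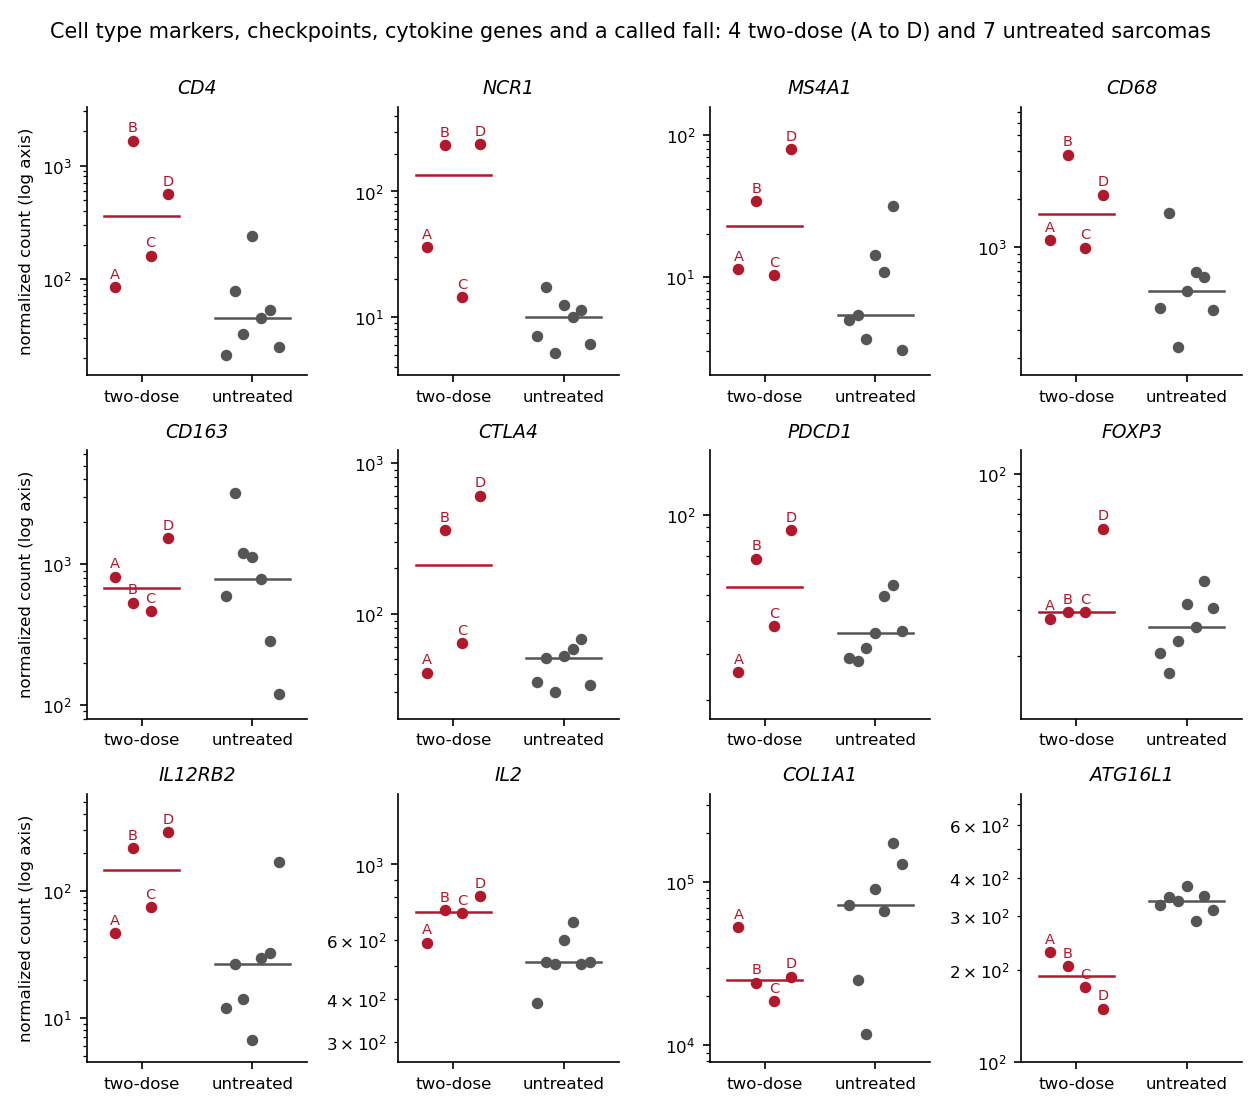
Normalized counts (log axes) of 12 further genes in the 4 two-dose tumours (red, A to D) and the 7 untreated tumours (grey), with a line at each group's median. CD163, PDCD1, FOXP3 and COL1A1 overlap widely between groups, and ATG16L1 is lower in every two-dose tumour, at 149 to 229 against 290 to 378.

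Checkpoint genes split. Of 27 tested genes of checkpoints and regulatory T cells, 14 rose (51.9%, against 33.3% of all tested genes) and 1 (CD276) fell. Their median log2 change was 1.22, or 0.59 above that of all genes. With TMM scaling 11 rose and 2 fell, against 21.5% and 4.97% of all tested genes. IDO1 and CD274 are on that list. CTLA4, the inhibitory receptor that competes with CD28, had 40.6, 359, 63.6 and 606 normalized counts in two-dose tumours A to D, against 30.1, 50.7 and 67.7 in untreated tumours. Tumours A and C were inside the untreated range, and the log2 change was 2.48 ± 0.58 (SE, adjusted p = 0.00337). ICOS, an inducible costimulator, rose by 3.35 ± 0.65 (SE, adjusted p = 0.000751). Neither CTLA4 (0.15) nor ICOS (1.95) was called without B and D. PDCD1, which encodes PD-1, had 25.6, 68.5, 38.2 and 87.8 normalized counts in two-dose tumours A to D, against 28.1, 35.8 and 54.5 in untreated tumours, and the log2 change of 0.47 ± 0.53 (SE, adjusted p = 0.549) was not called. FOXP3, the factor that defines regulatory T cells, had 27.8, 29.4, 29.4 and 61.5 normalized counts in two-dose tumours A to D, against 17.2, 25.7 and 38.7 in untreated tumours, a log2 change of 0.38 ± 0.50 (SE, adjusted p = 0.611). LAG3, an inhibitory receptor that binds MHC class II, stood at 0.57 ± 0.48 (SE, adjusted p = 0.408). All 3 of these changes turn negative with TMM scaling, at -0.27, -0.27 and -0.17.

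Of 20 tested costimulation genes 13 rose (65%, against 33.3% of all tested genes), at a median of 1.97. SLAMF6, a receptor of T, B and NK cells, had 48.1, 473, 32.6 and 351 normalized counts in two-dose tumours A to D, against 0.705, 10.0 and 14.1 in untreated tumours, where it was above background in 0 of 7. It rose by 4.98 ± 0.82 (SE, adjusted p = 0.000266), and SLAMF7, another receptor of that family, by 3.71 ± 0.54 (SE, adjusted p = 0.000154). Of 27 tested chemokine and chemokine receptor genes of lymphocytes 15 rose (55.6%, against 33.3% of all tested genes), at a median of 2.35. Both CXCR3, the receptor for CXCL10, and CXCR6, a receptor of tissue-resident T cells, rose without overlap, by 3.40 ± 0.54 (SE, adjusted p = 0.000215) and 3.55 ± 0.53 (SE, adjusted p = 0.000177). CCL3, an inflammatory chemokine, rose by 3.93 ± 0.93 (SE, adjusted p = 0.00348). CCL7, a monocyte chemokine, rose by 3.70 ± 1.03 (SE, adjusted p = 0.0102) and lost its call without tumour B (adjusted p = 0.0822) and with the letters as a block (0.0518, 0.000903 to 0.918 over all alternatives). Leaving out B and D together kept the calls of SLAMF7, CXCR3 and CXCR6, at 2.11, 1.78 and 2.09, and ended those of SLAMF6 and CCL3, at 2.52 and 0.52, while CCL7 turned negative, at -0.57.

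Among B and plasma cell genes 13 of 21 rose (61.9%, against 33.3% of all tested genes), at a median log2 change of 1.76. With TMM scaling 5 rose, against 21.5% of all tested genes. IGHM, the immunoglobulin M heavy chain, had 302, 4300.1, 601 and 10141 normalized counts in two-dose tumours A to D, against 15.4, 80.9 and 189.8 in untreated tumours, without overlap. It rose by 5.15 ± 0.86 (SE, adjusted p = 0.000284), the low-affinity IgE receptor FCER2 by 4.09 ± 0.74 (SE, adjusted p = 0.000472), and CD38, an ectoenzyme of plasma cells and activated lymphocytes, by 3.34 ± 0.60 (SE, adjusted p = 0.000445). None of these 3 was called without B and D, at 2.06, 1.07 and 1.44, nor was any other gene of the list. MS4A1, which encodes the B cell marker CD20, was above background in 0 of 4 two-dose tumours and 1 of 7 untreated tumours. Its log2 change of 1.44 ± 0.71 (SE, adjusted p = 0.134) was not called, and with the letters as a block it was (adjusted p = 0.031, 0.0266 to 0.995 over all alternatives). The rises on this list therefore came with this B cell marker at or near background.

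Macrophage and monocyte genes rose in 11 of 24 tested members, or 45.8% against 33.3% of all tested genes, at a median log2 change of 1.40. With TMM scaling 6 rose and 2 fell, against 21.5% and 4.97% of all tested genes. Without B and D or with sarcoma type as a covariate 0 rose, against 4.14% and 7.73% of all tested genes. CYBB, the catalytic subunit of the phagocyte oxidase, rose by 2.79 ± 0.59 (SE, adjusted p = 0.00148), TREM1, an amplifier of myeloid inflammation, by 3.13 ± 0.65 (SE, adjusted p = 0.00141), and CCR2, the receptor of inflammatory monocytes, by 2.82 ± 0.63 (SE, adjusted p = 0.00229). CD68, a lysosomal marker of macrophages, had 1105, 3786, 989 and 2125 normalized counts in two-dose tumours A to D, against 234, 531 and 1617 in untreated tumours, with A and C inside the untreated range. Its rise of 1.62 ± 0.46 (SE, adjusted p = 0.0114) was lost in 7 of 25 alternatives, TMM scaling (adjusted p = 0.0845) and leaving out B (0.103) among them. CD163, the haemoglobin scavenger receptor, had 813, 532, 462 and 1528 normalized counts in two-dose tumours A to D, against 119.5, 780.4 and 3211 in untreated tumours. For CD163 the log2 change of -0.33 ± 0.66 (SE, adjusted p = 0.754) was not called, nor was that of CD14, the endotoxin coreceptor, at 0.92 ± 0.53 (SE, adjusted p = 0.204).

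Dendritic cell genes rose in 3 of 10 tested members (30.0%, against 33.3% of all tested genes). Without B and D 0 rose, against 4.14% of all tested genes, and the list's median log2 change was -0.079. The 3 included XCR1, which marks cross-presenting dendritic cells, at 2.80 ± 0.47 (SE, adjusted p = 0.000301), and IRF8, their lineage factor, at 2.80 ± 0.66 (SE, adjusted p = 0.00339). Of 6 tested mast cell genes 3 rose with all tumours and 0 without B and D, against 33.3% and 4.14% of all tested genes. The 3 included FCER1G, the signalling chain of Fc receptors on many myeloid cells, at 2.57 ± 0.58 (SE, adjusted p = 0.00231). KIT, the stem cell factor receptor that defines mast cells in tissue, had 200.01, 134, 324 and 114 normalized counts in two-dose tumours A to D, against 92.4, 155 and 2347 in untreated tumours. Its log2 change of -1.83 ± 0.89 (SE, adjusted p = 0.129) was not called.

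By the median of their list, neutrophil genes were high in B and D and not in A and C. Of 13 tested genes 7 rose (53.8%, against 33.3% of all tested genes) and 6 were not called. Log2 changes over the list ran from -3.09 to 3.91, with a median of 1.73. With TMM scaling 1 of the 13 rose, against 21.5% of all tested genes. Without B and D 0 did, against 4.14%, and the median there was -0.65. S100A8, a calcium-binding protein abundant in neutrophils, had 375, 17530.00, 356 and 17858 normalized counts in two-dose tumours A to D, against 153, 292 and 4006 in untreated tumours. Tumours A and C lay near the untreated median, and B and D were both more than 4 times the highest untreated tumour. Its log2 change was 3.37 ± 1.05 (SE, adjusted p = 0.019) with all tumours and -1.25 without B and D. The adjusted p was 0.0811 without B, 0.0817 without D and 0.126 with the letters as a block (0.00102 to 0.728 over all alternatives). Its partner S100A9 rose by 3.91 ± 1.37 (SE, adjusted p = 0.0352) and S100A12 by 3.86 ± 1.34 (SE, adjusted p = 0.033), and both turned negative without B and D, at -1.47 and -1.36. The calls of S100A9 and S100A12 ended in 15 of 25 and 14 of 25 alternatives, TMM scaling and leaving out any untreated tumour other than D among them. Both lost their calls without B (adjusted p = 0.143 and 0.112) or without D (0.0965 and 0.108), and S100A9 with the letters as a block (0.0527, 0.000349 to 0.811 over all alternatives). CSF3R, the receptor for the granulocyte growth factor, rose by 3.53 ± 0.98 (SE, adjusted p = 0.0103) and lost its call without B (adjusted p = 0.222), with a change of 0.28 without B and D. Summed over the neutrophil list, two-dose tumours A to D had 1869, 48334, 2733 and 44066 normalized counts, against 1278, 1852 and 16010 (lowest, median and highest) in untreated tumours.

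Acute inflammation genes rose in 7 of 24 tested members (29.2%), close to the 33.3% of all tested genes. With TMM scaling 2 of the 24 rose, against 21.5% of all tested genes. SAA1, an acute phase apolipoprotein, had 31.6, 535, 23.1 and 465 normalized counts in two-dose tumours A to D, against 7.61, 12.5 and 18.1 in untreated tumours, with no overlap. It rose by 4.28 ± 0.69 (SE, adjusted p = 0.000224) and TNF, a macrophage and T cell cytokine, by 2.64 ± 0.54 (SE, adjusted p = 0.00115), and neither was called without B and D (1.04 and 0.36). IL6, an inducer of acute phase proteins, had 54.1, 3501, 299.8 and 3389 normalized counts in two-dose tumours A to D, against 16.2, 27.2 and 844 in untreated tumours. The rise of 3.67 ± 1.26 (SE, adjusted p = 0.0313) was lost in 15 of 25 alternatives, with TMM scaling (adjusted p = 0.0754), without B (adjusted p = 0.113) or D (0.102), and again without each untreated tumour except D. Innate sensing genes rose in 7 of 20 (35.0%) and complement genes in 8 of 23 (34.8%), shares near that of all genes. Their named members with the largest change were PYCARD, an inflammasome adaptor, at 2.99 ± 0.61 (SE, adjusted p = 0.00115), and CLU, a complement-binding chaperone, at 3.76 ± 0.75 (SE, adjusted p = 0.00102), both uncalled without B and D (1.56 and 1.70).

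Genes of tumour and stroma showed few calls. No gene rose among 12 fibroblast and matrix, 5 proliferation, 7 endothelial, 11 DNA repair and 7 Schwann cell genes tested, against 33.3% of all. The matrix list had a median log2 change of -0.62, or -1.25 relative to all genes. With TMM scaling 3 of its 12 genes fell, against 4.97% of all tested genes. COL1A1, the alpha chain of type I collagen, had 53266, 24245, 18701 and 26339 normalized counts in two-dose tumours A to D, against 11784, 72639 and 174497 in untreated tumours. Its log2 change of -1.41 ± 0.66 (SE, adjusted p = 0.114) was not called with housekeeping scaling and was called with TMM scaling (adjusted p = 0.0492). FN1, fibronectin, stood at -0.74 ± 0.53 (SE, adjusted p = 0.315). MKI67, a marker of dividing cells, had 313, 497, 66.8 and 658 normalized counts in two-dose tumours A to D, against 38.6, 180.2 and 377 in untreated tumours, and its log2 change of 1.03 ± 0.67 (SE, adjusted p = 0.266) was not called. PECAM1, the endothelial adhesion molecule, was at 0.055 ± 0.46 (SE), and its sign turned with TMM scaling (-0.61). The proliferation, endothelial and apoptosis lists, with medians of 0.13, 0.13 and 0.14, had medians of -0.60, -0.58 and -0.50 with TMM scaling. PIK3CG, a leukocyte lipid kinase, rose by 2.20 ± 0.46 (SE, adjusted p = 0.00138) among 2 of 25 growth factor and kinase genes, and FAS, a death receptor, by 1.61 ± 0.44 (SE, adjusted p = 0.00958) as the single rise among 10 apoptosis genes. FAS lost that call in 8 of 25 alternatives, among them TMM scaling (adjusted p = 0.0994), leaving out B (0.138) and the letters as a block (0.051, 0.00133 to 0.907 over all alternatives).

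The 3 falls were small. ATG16L1, which acts in autophagosome formation, had 229, 205, 176 and 149 normalized counts in two-dose tumours A to D, against 289.8, 336 and 378 in untreated tumours. Every two-dose tumour was below every untreated one, and the log2 change was -0.81 ± 0.24 (SE, adjusted p = 0.0151). CD276, the B7-H3 checkpoint ligand on tumour cells, had 577, 372, 960.5 and 544 normalized counts in two-dose tumours A to D, against 797, 1149 and 1335 in untreated tumours, with tumour C inside the untreated range. CD276 fell, with a log2 change of -0.82 ± 0.30 (SE, adjusted p = 0.0418). BRCA2, a homologous recombination factor, had 149.6, 70.1, 78.7 and 87.8 normalized counts in two-dose tumours A to D, against 131, 175 and 304 in untreated tumours, a log2 change of -0.99 ± 0.35 (SE, adjusted p = 0.035). All 3 also fell with TMM scaling, and 0 of the 3 did without B and D or with sarcoma type as a covariate. The calls of ATG16L1, CD276 and BRCA2 ended in 5 of 25, 15 of 25 and 13 of 25 alternatives. With the letters as a block their adjusted p was 0.0755, 0.255 and 0.0795 (0.00032 to 0.428, 0.00749 to 0.593 and 0.0107 to 0.507 over all alternatives), and 1 gene was then called lower. Leaving out D ended all 3 calls (adjusted p = 0.0593, 0.12 and 0.0954), and leaving out B (0.163 and 0.127) or untreated A, subtracting background and fitting the 11 tumours alone each ended those of CD276 and BRCA2. CD276 was also lost without two-dose A or untreated B, E, F or G, and BRCA2 without two-dose C or untreated C.

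Set out tumour by tumour, 9 of 31 lists lay, by their median, above every untreated tumour in all 4 two-dose tumours. Among them were IFNG response, cytotoxic effectors, NK cells, T cells and both MHC lists. The median log2 difference from the untreated median was 0.27, 1.05, 0.21 and 1.28 over all tested genes in A to D. For IFNG response genes it was 2.11, 4.31, 1.31 and 4.01, and no untreated tumour exceeded 0.90. For cytotoxic effectors it was 2.19, 4.20, 2.08 and 4.28, and no untreated tumour exceeded 0.54. NK cell genes stood at 1.60, 2.99, 1.13 and 3.49, with untreated tumours up to 0.40. The margin was narrow for T cell genes, at 1.18, 2.56, 1.36 and 3.19, with untreated tumours up to 1.15. It was narrow too for MHC class I genes, at 2.25, 3.83, 1.29 and 3.69, with untreated tumours up to 1.24. Neutrophil genes stood at 0.46, 3.24, 0.47 and 3.58, with 1 untreated tumour at 2.38. Matrix genes were at -0.34, -1.38, -0.64 and -1.25, with untreated tumours from -0.60 to 0.29. Without B and D, 9 of 22 IFNG response genes, 5 of 10 cytotoxic genes, 5 of 24 T cell genes, 3 of 11 NK cell genes and 2 of 11 MHC class I genes still rose, as did 0 of 10 class II genes, against 4.14% of all tested genes. The 30 rises of that fit included GZMB, GZMA, NKG7, CD160, EOMES, IL2RB, CD3E, CD8A, IDO1, CXCL10, GBP5, PSMB8 and IFNG. With sarcoma type as a covariate, 13 IFNG response, 6 cytotoxic, 6 T cell, 5 NK cell, 3 class I and 1 class II genes rose, against 7.73% of all tested genes.

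**Figure D4:**
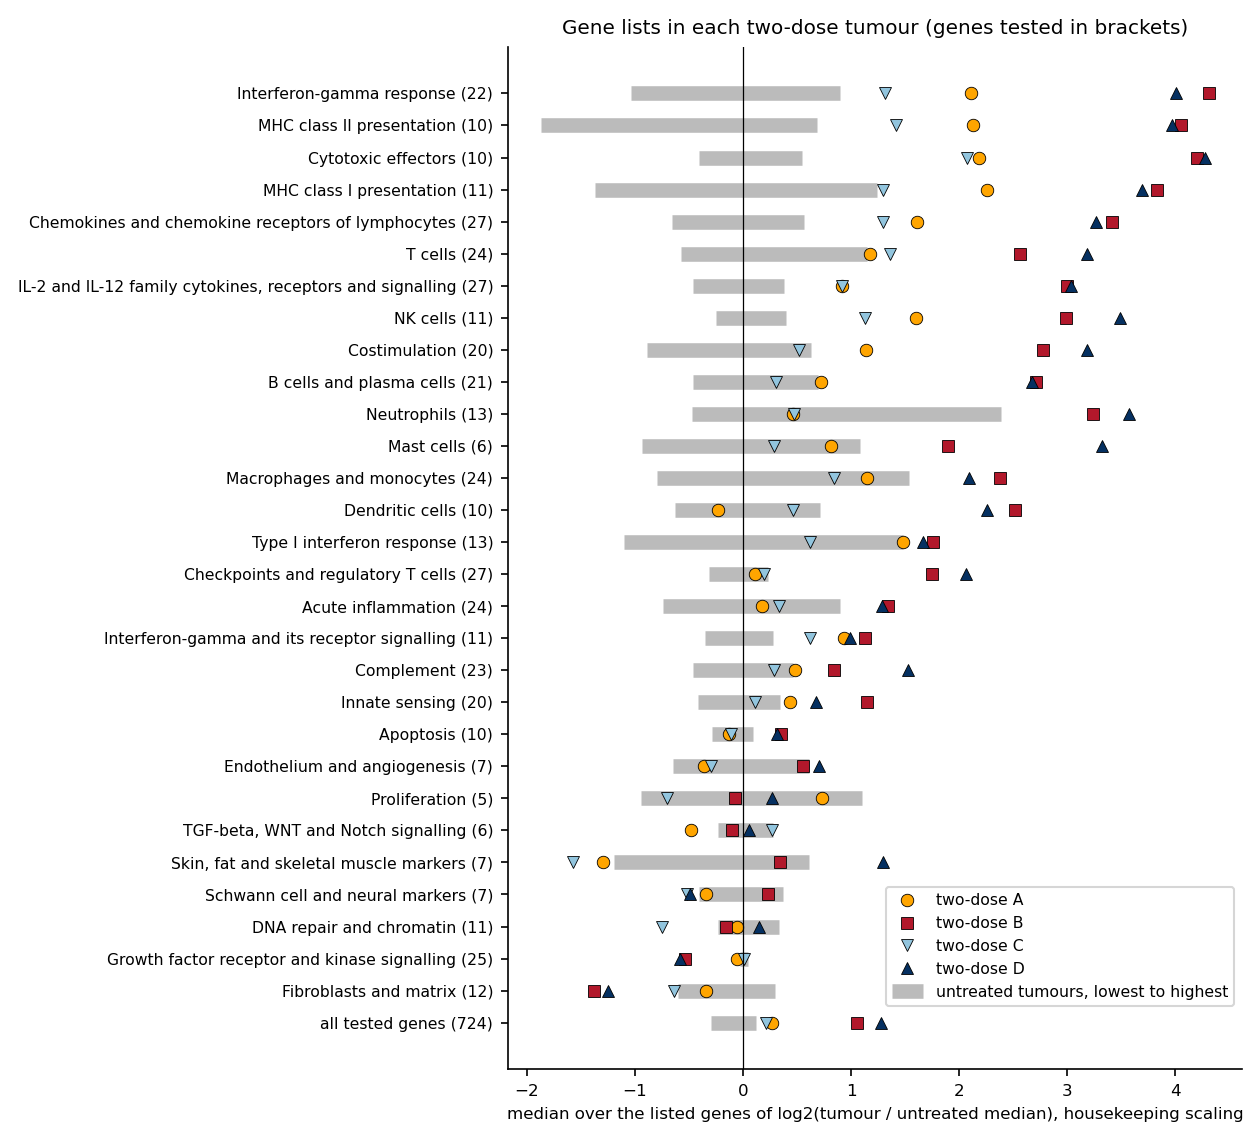
Median over each gene list of at least 5 tested genes of the log2 difference between a tumour and the untreated median, with housekeeping scaling, for two-dose tumours A to D (symbols) and the range of the 7 untreated tumours (grey bars). Symbols of B and D lie to the right of A and C for the immune lists, and to the left for fibroblast and matrix genes.

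Ratios between probes of the same tumour do not depend on the housekeeping scaling, and 6 were compared by a two-sided exact permutation test over 330 regroupings, whose smallest p is 0.00303. A count under the tumour's background was set to that background, which pulls a ratio toward 0. The log2 ratio of GZMB to CD3E was 2.37, 5.07, 1.35 and 4.70 in two-dose tumours A to D, against -1.43, -0.60 and 0.82 (lowest, median and highest) in untreated tumours. The groups did not overlap, with a difference of 3.75 (exact permutation p = 0.00303, 0.0121 adjusted over 6). GZMB was set to background in 3 untreated tumours and CD3E in 1.

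The log2 ratio of PDCD1 to CD3E was -2.91, -2.40, -2.93 and -1.18 in two-dose tumours A to D, against -1.23, 0.26 and 0.97 in untreated tumours. The difference was -2.53 (exact permutation p = 0.00606, adjusted 0.0121). Tumour D came out just inside the untreated range, but PDCD1 was at background there, so its ratio is an upper bound. FOXP3 to CD3E was -2.78, -2.45, -3.31 and -1.18 in two-dose tumours A to D, against -1.72, -0.015 and 0.47 in untreated tumours. The difference was -2.15 (exact permutation p = 0.00606, adjusted 0.0121). FOXP3 was at background in 2 two-dose tumours, B and D, and 1 untreated tumour, and PDCD1 in 1 two-dose tumour, D. The FOXP3 ratios of B and D are therefore upper bounds too. CD8A to CD4 differed by 0.79 (exact permutation p = 0.333), CD163 to CD68 by -1.52 (exact permutation p = 0.1) and IFNG to CD3E by 0.13 (exact permutation p = 0.909), none past the threshold. IFNG was at background in all 7 untreated tumours, and with background subtracted its ratio differed by 3.43 (exact permutation, adjusted p = 0.05). Among nerve sheath tumours alone, with 3 against 3, the design cannot reach the threshold.

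**Figure D5:**
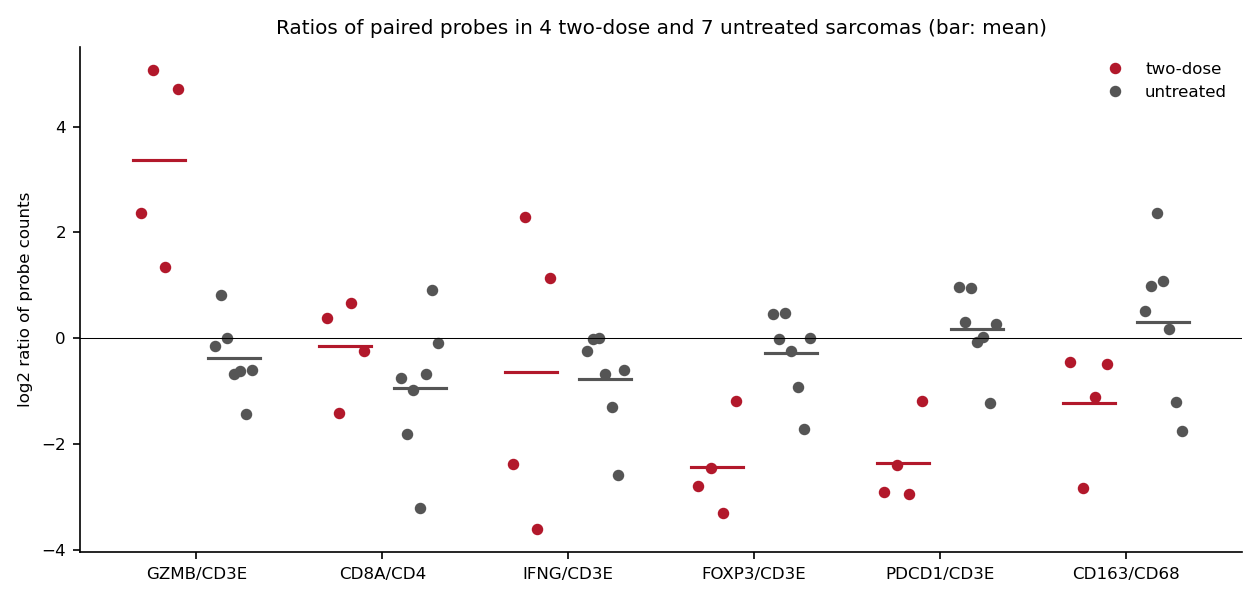
Log2 ratios of paired probes in the 4 two-dose tumours (red) and the 7 untreated tumours (grey), with a bar at each group's mean. GZMB to CD3E separates the groups upward, PDCD1 to CD3E and FOXP3 to CD3E are lower in the two-dose tumours, and the other 3 ratios overlap. Tumour D is the highest two-dose point for PDCD1 and FOXP3, but both genes were set to background there, so its points are upper bounds.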

How the data were processed

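RNA of 17 formalin-fixed canine sarcomas was measured on 780 endogenous, 20 housekeeping and 8 negative control probes. The deposited per-sample files hold raw probe counts exported from nSolver, per the labels and the file headers, and a second deposited table gives a signal that the authors had normalized by unstated steps. That signal served as an alternative, and 17 columns of a further table that matched no label were not used. Members and gene lists were chosen with earlier results of these data known.

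Each sample's counts were divided by its housekeeping geometric mean, rescaled to a common level. Testing required counts above background (negative control mean + 2 SD) in 3 or more samples, which kept 724 probes and removed 56. The test was edgeR 4.0.16 (R 4.3.3, robust quasi-likelihood) with 4 groups of 17 samples in 1 model, at a Benjamini-Hochberg adjusted p under 0.05. Each SE was worked out from the fitted change and its F statistic. Ratios used an exact permutation test. Alternatives used TMM, limma 3.58.1 and DESeq2 1.42.0. On counts simulated with exact scaling, 0.57% of unchanged genes were called. The simulated tumours had no background, no split within the two-dose group and no difference in sarcoma type or archiving. That rate therefore does not carry over to the calls made here.

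The text names the 15 largest called rises with at least 50 normalized counts, all called falls, the 3 lowest p, and per list the largest, the defining and the smallest members. Sample letters A to D recur in both groups for different dogs. Deviations from the group means of same-lettered tumours correlated at 0.320, 0.198, 0.277 and 0.380, so the letters were also fitted as a block. Depth ran from 205118 to 1752729 endogenous counts per tumour. Probe names matched the RefSeq genes of UU_Cfam_GSD_1.0 for all but 23 of 800 probes.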

Additional observations from a re-analysis of the deposited data

Results flagged for a closer look

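Of 210 gene-by-group sets tested for a lone high or low tumour, 7 held one, and chance flags about 1 set in 20. Untreated tumour D stood far above the other 6 untreated tumours for S100A8 (4006 normalized counts), S100A9 (1531), S100A12 (2169), CSF3R (285) and IL6 (844). All 5 genes are neutrophil or acute inflammation genes, and the same tumour set the upper end of the untreated range for each. For FOXP3, two-dose tumour D stood apart at 61.5 normalized counts, a value below that tumour's background of 338. For TRGC3, untreated tumour B was lowest at 3.62 normalized counts, below background as in all untreated tumours.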

How the results depend on the processing

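Depth limits two-dose tumour D most: background stood there at 338 normalized counts, so low counts give an upper bound rather than a level. Archiving, sarcoma type and the dog differ between the groups, and no scaling removes that. On simulated counts without background or a split two-dose group, all log2 changes of 3 were recovered and far fewer of 1. Even in that simpler setting, small changes can be missed.

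The count of rises stayed between 188 and 271 with 10 housekeeping probes, DESeq2, limma on the deposited values, no filter, the filter on a whole group, background subtracted, the 11 tumours alone and the letters as a block. It moved to 156 with TMM scaling, 145 with median-of-ratios scaling, 56 with sarcoma type as a covariate, 0 among nerve sheath tumours alone and, in fits chosen after seeing the data, 115 with TMM scaling without two-dose tumour D and 30 without B and D. Falls numbered 36, 47, 0, 0, 5 and 0 in these fits, and 17 with DESeq2, 12 with limma on the deposited values and 1 with the letters as a block. The median over all genes was -0.049 with TMM scaling, -0.13 with median-of-ratios scaling, -0.055 with TMM scaling without tumour D and 0.10 without B and D. Leaving out 1 tumour at a time gave 152 to 275 rises, 0 to 14 falls and a median of 0.45 to 0.76. With the letters as a block, no other named gene changed its call than those whose block value is given. Among nerve sheath tumours alone, the log2 ratio of GZMB to CD3E differed by 3.33, the log2 ratio of FOXP3 to CD3E by -2.27 and the log2 ratio of PDCD1 to CD3E by -2.53 (adjusted exact p = 0.2 each). The log2 ratio of IFNG to CD3E then differed by -0.17, and by -0.85 to 1.12 when 1 tumour was left out.

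With TMM scaling the log2 change turned sign for JAK1 (-0.37), KLRK1 (-0.56), PDCD1 (-0.27), FOXP3 (-0.27), LAG3 (-0.17), IL2 (-0.20), PECAM1 (-0.61) and S100B (-0.20). With median-of-ratios scaling the log2 change turned sign for JAK1 (-0.47), KLRK1 (-0.65), PDCD1 (-0.35), FOXP3 (-0.36), LAG3 (-0.25), IL2 (-0.30), PECAM1 (-0.70) and S100B (-0.26). With TMM scaling and without two-dose tumour D the log2 change turned sign for JAK1 (-0.11), KLRK1 (-0.38), PDCD1 (-0.36), FOXP3 (-0.34), LAG3 (-0.32), IL2 (-0.095), MKI67 (-0.098), PECAM1 (-0.52), S100B (-0.75) and SOX10 (-0.49). With background subtracted the log2 change turned sign for LAMP1 (0.041), PDCD1 (-0.15) and FOXP3 (-0.40). With limma on the deposited values the log2 change turned sign for CD163 (0.13), PDCD1 (-0.32) and FOXP3 (-0.19). With sarcoma type as a covariate the log2 change turned sign for LAG3 (-0.19), PECAM1 (-0.094), S100B (-0.35) and SOX10 (-0.051). Among nerve sheath tumours alone the log2 change turned sign for LAG3 (-0.0075), PECAM1 (-0.033) and S100B (-0.26). With the letters as a block the log2 change turned sign for KIT (0.47) and PECAM1 (-0.14). Without two-dose tumours B and D the log2 change turned sign for CD14 (-0.065), S100A8 (-1.25), S100A9 (-1.47), S100A12 (-1.36), PDCD1 (-0.25), LAG3 (-0.044), CCL7 (-0.57), PECAM1 (-0.41), S100B (-1.07), SOX10 (-0.59) and KRT14 (-5.78). Leaving out 1 tumour at a time turned the sign of uncalled genes, whose log2 change then ran over these ranges: JAK1 -0.11 to 0.25, KLRK1 -0.088 to 0.16, CD163 -0.79 to 0.28, PECAM1 -0.16 to 0.30 and S100B -0.21 to 1.01. The cause of these moves was not tested.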

Other observations

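Of the 241 rises, 70 belonged to none of the gene lists, and the genes below were picked from them after their values were seen. Leukocyte surface and adhesion genes were among them. Changes without B and D are not given for the genes picked here. PTPRC, the CD45 phosphatase of all leukocytes, had 785, 2717, 608 and 3371 normalized counts in two-dose tumours A to D, against 99.7, 197 and 499.9 in untreated tumours, with no overlap and a log2 change of 2.92 ± 0.55 (SE, adjusted p = 0.00069). The integrin chains ITGAL and ITGB2, which pair to form LFA-1, rose by 3.92 ± 0.66 (SE, adjusted p = 0.000301) and 3.20 ± 0.54 (SE, adjusted p = 0.000301). TNFSF13B, the B cell survival factor BAFF, had 325, 1640.5, 146 and 1414 normalized counts in two-dose tumours A to D, against 34.5, 51.4 and 120.03 in untreated tumours, and rose by 3.78 ± 0.58 (SE, adjusted p = 0.000187). SLC11A1, a metal transporter of phagosomes, rose by 3.55 ± 0.77 (SE, adjusted p = 0.00175), and NR1H3, a nuclear receptor for oxysterols in macrophages, by 2.84 ± 0.46 (SE, adjusted p = 0.000225). BATF, a factor of activated T cells, rose by 3.32 ± 0.71 (SE, adjusted p = 0.00163) and lost its call with the letters as a block (adjusted p = 0.0936).

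IL22, a cytokine that acts on epithelium, had 17.3, 135, 15.1 and 263 normalized counts in two-dose tumours A to D, against 6.35, 9.67 and 17.2 in untreated tumours, and was above background in 1 of 11 tumours. Its log2 change was 3.30 ± 0.61 (SE, adjusted p = 0.00054), so this call rests on values at background in all tumours but B. MDM4, an inhibitor of p53, had 653, 616, 625 and 579 normalized counts in two-dose tumours A to D, against 711, 807 and 1068 in untreated tumours. Every two-dose tumour was below every untreated one, yet the log2 change of -0.46 ± 0.24 (SE, adjusted p = 0.155) was not called with housekeeping scaling and was called with TMM scaling (adjusted p = 0.0227).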
